A study of Mus musculus with 17 samples.

Results

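The TNF family costimulation genes described here are 10 genes of the tumor necrosis factor (TNF) superfamily, 3 receptors (Tnfrsf9, Cd27 and Cd40) and 7 ligands (Tnfsf9, Cd70, Cd40lg, Tnfsf4, Tnfsf18, Tnfsf14 and Tnfsf10). They are the genes of the count table whose Ensembl ID carries these symbols in Gencode vM21, and all 10 were found among its 55450 genes. The set was put together with earlier results of these data known, so its counts beside the background of all genes are descriptions. RNA was measured in 17 peritoneal tumors that grew from AB12, a murine mesothelioma cell line, after its injection into the peritoneum of 8-week-old female BALB/c mice. Of the untreated tumors, 3 were collected on day 6 (d6), 5 on d10 and 3 on d14. Tumors treated with anti-CTLA4 (clone 9D9), an antibody against an inhibitory receptor of T cells, numbered 3 on d10 and 3 on d14. The antibody was given as 200 µg per injection into the peritoneum, and no control antibody is named for the untreated mice. The labels give a course of 4 injections, 2 per week, and the study's text gives d6 and d10 as the injection days before the treated d14 tumors, but the schedule before the treated d10 tumors is not given in the sources used here. All tumors came from 1 cell line in 1 strain, and each library is whole tumor RNA, in which malignant cells, stroma and leukocytes are mixed.

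Ligands of the TNF family are mostly trimeric membrane proteins that cluster their receptors on a neighboring cell. Costimulatory receptors of the family recruit TRAF adaptors and switch on NF-kB, which supports the survival, division and cytokine production of lymphocytes that have met antigen. Tnfrsf9 (CD137) appears on T cells and NK cells after activation and binds Tnfsf9, whereas Cd27 is carried by resting T cells and binds Cd70. Cd40 sits on B cells, dendritic cells and macrophages and receives its ligand Cd40lg mainly from activated CD4 T cells. Tnfsf4 (OX40 ligand) and Tnfsf18 (GITR ligand) engage Tnfrsf4 and Tnfrsf18, receptors that are abundant on regulatory T cells, and Tnfsf14 (LIGHT) engages Tnfrsf14 and the lymphotoxin beta receptor. Tnfsf10 (TRAIL) stands apart, since its receptor carries a death domain and the ligand itself is induced by interferons.

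Total counts per tumor ran from 46371577 to 96759833 (median 72413343). The d6 tumors were the shallowest group by median (50531248, at most 52814004), though untreated d10 replicate 3 held 51159050. By their counts of pseudogenes and small RNAs the libraries fell into 3 sets. The first held the d6 tumors and untreated d10 replicates 1 to 3, the second untreated d10 replicates 4 and 5 with the treated d10 tumors, and the third every d14 tumor. By the edgeR test, untreated d10 replicates 4 and 5 differed from replicates 1 to 3 in 7.89% of 17321 genes. Of the 10 TNF family genes 0 were called, a count near that share, with 2 (Tnfrsf9 and Cd40lg) at an unadjusted p under 0.05. Both were lower in replicates 4 and 5, Cd40lg by a log2 difference of -1.24 (adjusted p = 0.0502) and Tnfrsf9 by -0.49 (adjusted p = 0.097). Day and set cannot be told apart between d10 and d14 tumors or between d6 and d14 tumors, whereas treated and untreated d14 tumors lay in the same set. The study's text names different sequencing instruments and the removal of genes with a batch effect between sequencing projects. It does not say which tumors belonged to which project. The cell content of the tumors moved as well. The summed level of 5 T cell markers, in CPM (counts scaled to a common library total), was 37.3 to 40.2 at d6, 126 to 165 CPM at d10 and 55.3 to 93.7 CPM at d14 without treatment, and 143 to 163 CPM in treated d14 tumors. The 9 markers of mesothelium and mesothelioma summed to 1882 to 4041 CPM over all tumors, with 1 of them (Pdpn) at 0 in every library of the d6 and both d10 groups.

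Per kilobase of exon, Tnfrsf9 was the most abundant of the 10 genes in every group, at 31.2 CPM per kb at d6, 70.1 at d10 and 54.3 at d14 without treatment, and at 83.1 and 84.5 in treated d10 and d14 tumors. Its ligand Tnfsf9 came next in every group, at 21.0, 19.4 and 18.9 CPM per kb on these days and at most 25.5, in treated d10 tumors. At d6 the death ligand Tnfsf10 (12.4 ± 4.28 CPM per kb, SD, n = 3) and Cd40 (9.72 ± 2.14) did not differ beyond their spread, and Tnfsf14 (1.85) and Cd27 (1.23) followed. Tnfsf4, Tnfsf18, Cd40lg and Cd70 stayed under 1 CPM per kb in all groups.

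**Figure D1:**
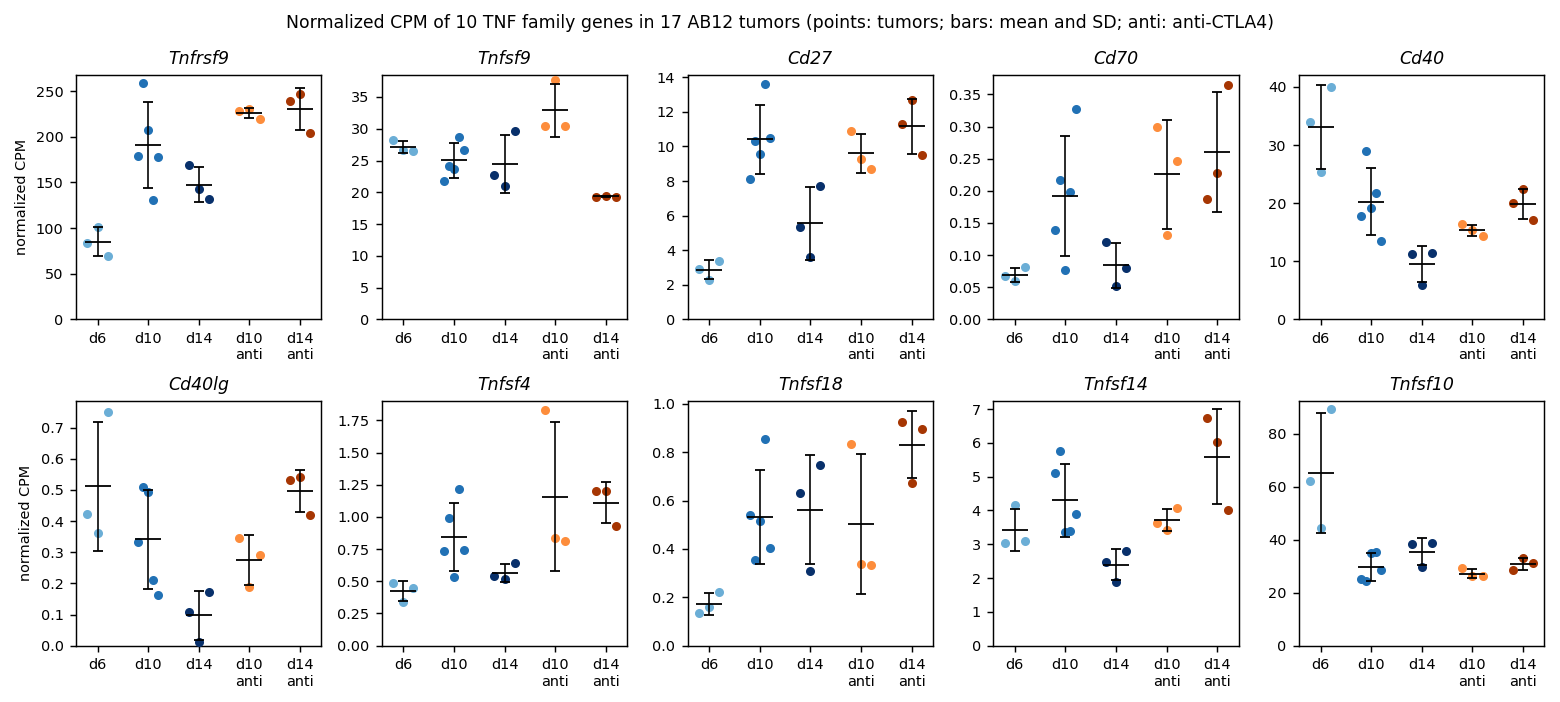
Normalized CPM (linear axes starting at 0) of the 10 genes by group, with 1 point per tumor and the mean ± SD as bars; "anti" marks anti-CTLA4 tumors. Cd27 and Tnfrsf9 were lowest at d6, Tnfsf10 highest at d6, and Cd40 lowest in untreated d14 tumors.

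Tnfrsf9 (ENSMUSG00000028965.13, GRCm38 chr4:150914562-150946102, plus strand) encodes the activation-induced receptor CD137. Its normalized level was 84.1, 101 and 69.8 CPM in the d6 tumors, 179, 259, 208, 130 and 178 CPM in the untreated d10 tumors and 169, 143 and 132 CPM in the untreated d14 tumors. Treated tumors held 228, 231 and 220 CPM at d10 and 239, 247 and 204 CPM at d14. Every later tumor lay above every d6 tumor, the lowest d10 tumor (replicate 4) lay below the untreated d14 range, and the treated d14 tumors all lay above the untreated ones. In the order of means the treated d14 (230 ± 22.9), treated d10 (226 ± 5.69) and untreated d10 tumors (191 ± 47.0) overlapped, and untreated d10 overlapped d14 (148 ± 19.0; SD, n as above). In bulk RNA, fewer cells of a type and less RNA per cell cannot be told apart, here and for every gene that follows. The gene overlaps Camta1 on the other strand, but their exons share 0 bases.

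Its ligand Tnfsf9 (ENSMUSG00000035678.8, chr17:57105325-57107757, plus strand), made mainly by antigen-presenting cells, was the steadiest of the 10 without treatment. It measured 28.2, 26.7 and 26.4 CPM at d6, 21.8, 24.2, 23.7, 28.8 and 26.7 CPM at d10 and 22.7, 21.0 and 29.6 CPM at d14. Treated tumors held 30.5, 37.6 and 30.5 CPM at d10 and 19.2, 19.5 and 19.3 CPM at d14. The untreated groups overlapped each other, while the treated d10 tumors lay above and the treated d14 tumors below all untreated tumors. Tnfsf9 shares 192 exonic bases with Gm11110, a long noncoding RNA gene of the opposite strand, and the strand setting of the counting is not given in the sources used here, so reads of these genes may not be told apart.

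Cd27 (ENSMUSG00000030336.14, chr6:125232622-125237010, minus strand) was measured at 2.94, 2.30 and 3.38 CPM at d6 and at 8.14, 10.3, 9.55, 13.6 and 10.5 CPM at d10. Untreated d14 tumors held 5.32, 3.59 and 7.73 CPM, treated d10 tumors 10.9, 9.25 and 8.68 CPM, and treated d14 tumors 11.3, 12.7 and 9.50 CPM. The d6 tumors lay below all others, and the untreated d14 tumors lay between the d6 tumors and all remaining ones, with no overlap. The means of treated d14 (11.2 ± 1.59), untreated d10 (10.4 ± 2.001) and treated d10 tumors (9.60 ± 1.14) were within their spread. The microRNA gene Mir8113 covers 129 exonic bases of Cd27 on the same strand.

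Cd70 (ENSMUSG00000019489.7, chr17:57145997-57149777, minus strand), the ligand of Cd27 on activated lymphocytes and dendritic cells, was barely detected. Its raw counts were 3, 3 and 4 at d6, 8, 14, 4, 17 and 22 at d10, and 9, 4 and 8 at d14, against 25, 9 and 17 in treated d10 and 19, 21 and 33 in treated d14 tumors. In normalized terms the mean was 0.0694 ± 0.0105 CPM at d6, 0.192 ± 0.0939 at d10 and 0.0844 ± 0.0349 at d14, and 0.225 ± 0.0855 and 0.260 ± 0.0933 in the treated groups. Treated and untreated d14 tumors did not overlap in normalized level, whereas untreated d14 overlapped d6 and d10.

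Cd40 (ENSMUSG00000017652.16, chr2:165055627-165072948, plus strand) moved in the other direction over time. The d6 tumors had 34.0, 25.4 and 39.9 CPM, the untreated d10 tumors 17.8, 29.0, 19.1, 21.7 and 13.5 CPM, and the untreated d14 tumors 11.3, 5.93 and 11.5 CPM. Treated tumors held 16.3, 15.3 and 14.4 CPM at d10 and 20.1, 22.4 and 17.2 CPM at d14. Untreated d14 tumors lay below every other tumor, replicate 2 of them lowest, and d10 replicate 2 was the only untreated d10 tumor within the d6 range.

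Cd40lg (ENSMUSG00000031132.1, chrX:57212143-57224042, plus strand) had raw counts of 19, 18 and 37 at d6, of 19, 33, 26, 18 and 11 at d10, and of 8, 1 and 17 at d14. The treated tumors held 29, 13 and 20 counts at d10 and 54, 50 and 38 at d14. Its normalized level took the order d6 (0.512 ± 0.208 CPM), treated d14 (0.498 ± 0.0674), untreated d10 (0.342 ± 0.159), treated d10 (0.275 ± 0.0792) and untreated d14 (0.0973 ± 0.0797), and among neighbors in this order only treated d10 and untreated d14 did not overlap. With 1 count, untreated d14 replicate 2 was under the floor of 3 counts.

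The neighboring ligand genes Tnfsf4 (ENSMUSG00000026700.4, chr1:161395409-161418410) and Tnfsf18 (ENSMUSG00000066755.2, chr1:161494655-161505290), both on the plus strand and 76.2 kb apart, were low. Tnfsf4 measured 0.489, 0.343 and 0.446 CPM at d6, 0.734, 0.991, 0.533, 1.22 and 0.745 at d10 and 0.538, 0.516 and 0.645 at d14, with 1.83, 0.833 and 0.811 in treated d10 and 1.20, 1.20 and 0.929 in treated d14 tumors. Tnfsf18 measured 0.133, 0.161 and 0.223 CPM at d6, 0.542, 0.356, 0.514, 0.853 and 0.402 at d10 and 0.632, 0.310 and 0.745 at d14, with 0.836, 0.336 and 0.333 in treated d10 and 0.926, 0.672 and 0.896 in treated d14 tumors. For both genes every d6 tumor lay below every later tumor, and the highest treated d10 value in each case was replicate 1. Treated d14 tumors lay above untreated d14 tumors for Tnfsf4 and overlapped them for Tnfsf18.

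Tnfsf14 (ENSMUSG00000005824.7, chr17:57189492-57194177, minus strand) lies in a row with Tnfsf9 and Cd70, 39.7 kb from Cd70, which is itself 38.2 kb from Tnfsf9. Its level was 3.03, 4.15 and 3.10 CPM at d6, 5.12, 5.76, 3.37, 3.39 and 3.89 at d10 and 2.49, 1.90 and 2.80 at d14, with 3.63, 3.43 and 4.07 in treated d10 and 6.73, 6.01 and 4.03 in treated d14 tumors. Untreated d14 tumors lay below all others, and treated d14 tumors 1 and 2 above all others.

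Tnfsf10 (ENSMUSG00000039304.11, chr3:27317028-27342427, plus strand) was measured at 62.2, 44.4 and 89.2 CPM at d6 and at 25.2, 24.4, 35.1, 35.5 and 28.6 CPM at d10. Untreated d14 tumors held 38.2, 29.5 and 38.8 CPM, and treated tumors 29.2, 26.2 and 26.2 CPM at d10 and 28.4, 33.0 and 31.3 CPM at d14. The d6 tumors lay above all others. The remaining tumors lay between 24.4 and 38.8 CPM, with treated and untreated tumors overlapping on each day.

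The sequence before the RefSeq start is shown for the 5 of the 10 genes that the set of RefSeq promoters used here (GRCm38.p6) held. Each of them was called in at least 1 comparison. A second RefSeq start of Tnfrsf9 is left out. The windows reach at most 250 bases upstream, each in the direction of its gene, without bases that Gencode places in an exon of that gene. They cover chr4:150919905-150920154 for Tnfrsf9, inside the longer Gencode gene span, chr6:125237028-125237277 for Cd27, chr1:161494407-161494654 for Tnfsf18, chr3:27316827-27317027 for Tnfsf10 and chr17:57194182-57194431 for Tnfsf14.
Tnfrsf9: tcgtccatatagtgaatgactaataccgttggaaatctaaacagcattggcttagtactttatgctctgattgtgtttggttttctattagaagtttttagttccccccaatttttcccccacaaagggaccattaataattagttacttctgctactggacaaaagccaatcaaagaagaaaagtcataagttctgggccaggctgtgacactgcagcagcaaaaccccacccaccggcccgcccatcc
Cd27: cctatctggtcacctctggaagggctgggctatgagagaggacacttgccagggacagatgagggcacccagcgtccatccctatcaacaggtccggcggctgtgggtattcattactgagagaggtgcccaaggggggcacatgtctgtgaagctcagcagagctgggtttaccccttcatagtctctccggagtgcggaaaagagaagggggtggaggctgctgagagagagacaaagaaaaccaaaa
Tnfsf18: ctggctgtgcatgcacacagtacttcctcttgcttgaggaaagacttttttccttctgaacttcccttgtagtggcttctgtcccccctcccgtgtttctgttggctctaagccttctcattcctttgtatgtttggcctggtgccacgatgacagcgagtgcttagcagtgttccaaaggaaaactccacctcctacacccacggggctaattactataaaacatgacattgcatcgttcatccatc
Tnfsf10: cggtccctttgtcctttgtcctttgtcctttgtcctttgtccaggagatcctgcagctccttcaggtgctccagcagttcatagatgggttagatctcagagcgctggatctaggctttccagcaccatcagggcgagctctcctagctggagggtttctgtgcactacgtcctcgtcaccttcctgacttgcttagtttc
Tnfsf14: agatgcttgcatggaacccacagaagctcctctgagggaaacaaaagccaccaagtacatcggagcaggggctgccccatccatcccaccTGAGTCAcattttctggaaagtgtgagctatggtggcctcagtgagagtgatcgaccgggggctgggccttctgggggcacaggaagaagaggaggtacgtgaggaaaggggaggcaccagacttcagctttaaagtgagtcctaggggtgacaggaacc
Capitals mark the only match to the motifs searched, a TGANTCA word of the AP-1 family, which reads as a match on both strands. The interferon response element core GAAANNGAA and an NF-kB site were also searched on both strands and had no match in these windows. Of 32841 RefSeq promoters taken at 250 bases upstream, 6.75% held the AP-1 word, 7.13% the interferon word and 7.25% the NF-kB site. A match is a run of letters and was not tested for binding.

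Between d6 and d10 without treatment, Cd27 rose 3.69-fold (log2 change 1.88 ± 0.21 SE, adjusted p = 0.0006), Tnfsf18 3.12-fold (1.64 ± 0.39, adjusted p = 0.02) and Tnfrsf9 2.29-fold (1.19 ± 0.21, adjusted p = 0.0052). Tnfsf10 fell 2.16-fold (-1.11 ± 0.22, adjusted p = 0.0081). Adjusted p-values are from edgeR's quasi-likelihood test with Benjamini-Hochberg adjustment over all genes tested, and a gene was called at an adjusted p under 0.05 with a change above 2-fold. Thus 3 of the 10 genes were called higher and 1 lower, where 4.79% and 2.66% of 16866 genes were. The median log2 change of the 10 genes was 0.68, against 0.03 for all genes tested.

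The 6 remaining genes did not pass. Tnfsf4 (log2 difference 1.01 ± 0.32, adjusted p = 0.058) and Cd70 (1.48 ± 0.54, adjusted p = 0.087) were higher at d10 in value, and Cd40 was lower (-0.69 ± 0.23, adjusted p = 0.064). Cd27 kept its call in every alternative analysis. Without d6 replicate 1 or 2 the adjusted p of Tnfsf18 was 0.099 or 0.079 (0.0077 to 0.099 over its alternatives), without d6 replicate 3 the change of Tnfsf10 was -0.81, and with only d10 replicates 4 and 5 that of Tnfrsf9 was 0.88. With those replicates alone, and also without d10 replicate 3, 6 genes were called, Tnfsf4 and Cd70 among them in both cases, where 16.7% and 8.20% of all genes were called in either direction.

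In the same tumors 4 of 5 T cell markers and both CD8 markers rose, CD8 marker sums going from 12.1 to 12.4 CPM to 96.6 to 135 CPM, and the part of this in the rise of Cd27 and Tnfrsf9 was not tested. Among the receptors and other partners of the 10 genes, 1 of 10 was called higher, Cd160 (log2 change 1.51 ± 0.20, adjusted p = 0.0013), a binding partner of Tnfrsf14 on cytotoxic lymphocytes. Another was called lower, Tnfrsf11b (-1.04 ± 0.15, adjusted p = 0.0019), a soluble decoy receptor for Tnfsf10. Of 10 other TNF ligands tested, Fasl (1.496 ± 0.19, adjusted p = 0.00097), the death ligand of cytotoxic lymphocytes, and Ltb (1.14 ± 0.34, adjusted p = 0.043), a lymphotoxin subunit, rose. Of 16 other TNF receptors and 14 genes of TRAF and NF-kB signaling, edgeR called 0, with 3 and 1 at an unadjusted p under 0.05.

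From d10 to d14 without treatment only Cd40 passed, falling 2.12-fold (log2 change -1.09 ± 0.28, adjusted p = 0.026). This was 1 gene called lower and 0 higher of 10, where 3.45% and 3.78% of 17659 genes were. Cd27 (-0.92 ± 0.25, adjusted p = 0.034) and Tnfsf14 (-0.85 ± 0.24, adjusted p = 0.037) had adjusted p-values under 0.05 with less than a 2-fold difference. By adjusted p alone 3 of the 10 passed, where 19.7% of all genes did. Cd40lg was lower by value (-1.76 ± 0.65, adjusted p = 0.082), and 8 of the 10 log2 differences were negative (median -0.72, against -0.04 for all genes). Cd40 lost its call without d10 replicate 2 (adjusted p = 0.052), without d14 replicate 1 (0.056) or 2 (0.1) and with only d10 replicates 4 and 5 (0.072), within a range of 0.0012 to 0.1 over its alternatives. Cd40lg passed with DESeq2 (-1.79), with all 5 groups in one fit (-1.74) and with only d10 replicates 1 to 3 (-2.13), its adjusted p running from 0.02 to 0.38. Cd27 passed with only d10 replicates 4 and 5 (-1.13), as did Cd70 (-1.63), and without d10 replicate 1 (-1.002) or d14 replicate 3 (-1.23).

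Macrophage markers, which mark cells that carry Cd40, summed to 495 to 803 CPM at d10 and 239 to 487 CPM at d14, with 1 of 5 (Cd68) called lower, and their part in the difference of Cd40 was not tested. Also called lower were 2 of 5 T cell markers (Cd5 and Cd3d), Cd8b1, Cd4 and 2 of 3 NK cell markers (Klrb1c and Ncr1), whose part in the differences that follow was not tested. Of the partners, Cd160 (log2 change -1.09 ± 0.20, adjusted p = 0.0094) and Tnfrsf18 (-1.26 ± 0.24, adjusted p = 0.01), the GITR receptor, fell. The lymphotoxin genes Ltb (-1.73 ± 0.43, adjusted p = 0.024) and Lta (-1.63 ± 0.32, adjusted p = 0.012) fell among 10 other ligands, and Tnfrsf8 (-1.37) and Tnfrsf19 (-1.23) among 16 other receptors, while 0 of 14 signaling genes was called by edgeR, with 8 at an unadjusted p under 0.05.

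Set against d6, the untreated d14 tumors had lower Cd40 (3.43-fold, log2 change -1.78 ± 0.26, adjusted p = 0.00061) and Cd40lg (4.98-fold, -2.32 ± 0.61, adjusted p = 0.012) and higher Tnfsf18 (1.71 ± 0.43, adjusted p = 0.0092). Of the 9 genes tested, 1 was called higher and 2 lower, where 10.2% and 8.81% of 17172 genes were, so the count called higher is near the background. Tnfrsf9 (0.82 ± 0.14, adjusted p = 0.0015) and Cd27 (0.96 ± 0.29, adjusted p = 0.02) were higher and Tnfsf10 (-0.86 ± 0.23, adjusted p = 0.012) lower by less than 2-fold. By adjusted p alone 6 of the 9 passed, where 51.5% of all genes did. Cd70 was too low to be tested. This comparison shares its tumors with the 2 before it and is no separate support for them, and day and library set cannot be told apart in it. Without d6 replicate 3 the adjusted p of Cd40lg was 0.059, within a range of 0.00085 to 0.059 over its alternatives. Cd27 passed without d6 replicate 3 (1.09) or d14 replicate 2 (1.20), and Tnfsf10 without d6 replicate 2 (-1.09).

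Among the partners, Tnfrsf4 (OX40; log2 change -1.65 ± 0.16, adjusted p = 9e-05), Tnfrsf18 (-1.20 ± 0.25, adjusted p = 0.0035) and Tnfrsf11b (-1.62 ± 0.16, adjusted p = 0.00012) were lower at d14 than at d6, and edgeR called no partner higher. Cd4 itself ranged from 9.11 to 10.8 CPM at d6 and from 2.08 to 4.57 CPM at d14. The ligands Lta and Tnfsf8, the receptors Ngfr, Tnfrsf17 and Tnfrsf8, and Nfkbia, the NF-kB inhibitor that NF-kB itself induces (-1.001 ± 0.13, adjusted p = 0.00034), were called lower as well.

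**Figure D2:**
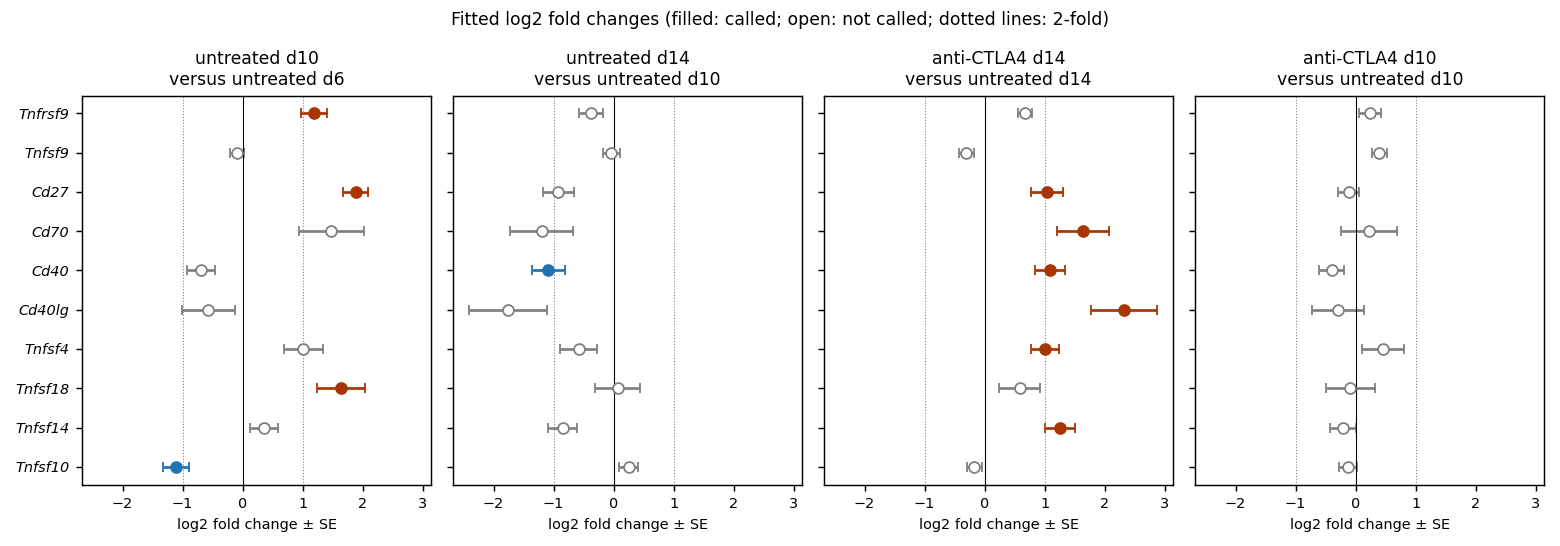
Log2 fold change ± SE (edgeR) of the 10 genes in 4 comparisons; filled points were called and dotted lines mark a 2-fold change. The treated d14 panel has 6 filled points, all to the right of the line, and the treated d10 panel has 0.

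At d14, anti-CTLA4 tumors exceeded untreated tumors in 6 of the 10 genes. Cd40lg rose 5.00-fold (log2 change 2.32 ± 0.56, adjusted p = 0.019), Cd70 3.11-fold (1.64 ± 0.43, adjusted p = 0.025) and Tnfsf14 2.39-fold (1.25 ± 0.25, adjusted p = 0.01). Cd40 rose 2.12-fold (1.09 ± 0.25, adjusted p = 0.016), Cd27 2.05-fold (1.04 ± 0.27, adjusted p = 0.023) and Tnfsf4 just over 2-fold (1.002 ± 0.23, adjusted p = 0.016). So 6 were called higher and 0 lower, where 9.07% and 2.40% of 18062 genes were, and the median log2 change was 1.02 for the 10 genes and -0.0043 for all genes. Tnfrsf9 was higher in 3 of 3 treated tumors with less than a 2-fold difference (0.67 ± 0.12, adjusted p = 0.0081). By adjusted p alone 7 of the 10 passed, where 32.4% of all genes did. Tnfsf9 (-0.30 ± 0.13, adjusted p = 0.1) and Tnfsf10 (-0.17 ± 0.12, adjusted p = 0.31) were lower in value and Tnfsf18 higher (0.59 ± 0.34, adjusted p = 0.22), none of them passing.

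Several of these calls were lost when 1 tumor was left out, often with a log2 change close to that of the main fit. Where Cd40lg lost its call, its log2 change was 2.30 to 2.37, against 2.32 in the main fit. Leaving out 1 of the 6 tumors left between 1 and 6 genes called: 1 without treated replicate 2, 2 without treated replicate 1 or untreated replicate 2, and 3 without untreated replicate 1. The share of all genes called also fell in these fits, from 11.5% to 6.46%, 6.32%, 7.46% and 7.28%, in that order. It was 11.1% without treated replicate 3, with 5 genes called, and 15.2% without untreated replicate 3, with 6. Tnfsf14 was called in all alternatives (adjusted p 5.9e-06 to 0.04). Without untreated replicate 1 the adjusted p was 0.064 for Cd40lg, 0.078 for Cd27 and 0.058 for Tnfsf4. Without untreated replicate 2 it was 0.068 for Cd70, and the log2 changes of Cd40 (0.82), Cd27 (0.79) and Tnfsf4 (0.92) were under 2-fold. Without treated replicate 1 it was 0.062 for Cd40lg, 0.052 for Cd40, 0.067 for Cd27 and 0.056 for Tnfsf4, and without treated replicate 2 it was 0.064, 0.056, 0.077 and 0.059, with 0.065 for Cd70. Without treated replicate 3 it was 0.076 for Cd70. Over all alternatives the adjusted p ran from 0.0023 to 0.064 for Cd40lg, 5.4e-05 to 0.056 for Cd40, 0.00036 to 0.078 for Cd27, 0.02 to 0.076 for Cd70 and 0.0044 to 0.059 for Tnfsf4. Tnfsf4 was called in 7 of 14 alternatives, its log2 change also being just under 2-fold with all 5 groups in one fit (0.968) and with all genes of at least 1 count (0.998).

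Markers of other cells also differed at d14. Treated tumors had called increases in 2 of 5 T cell markers (Cd5 and Cd6), in Cd4, in Cd8b1, in 2 of 4 regulatory T cell markers (Il2ra and Foxp3) and in 3 of 5 macrophage markers (Adgre1, Cd68 and Csf1r). Their macrophage sum was 735 to 926 CPM against 239 to 487 CPM, and Cd4 was 8.13 to 10.2 CPM against 2.08 to 4.57 CPM. The summed mesothelial markers were lower, at 1882 to 2098 CPM against 2767 to 2837 CPM, although of the 8 tested 2 (Wt1 and Lrrn4) were called higher, 0 were called lower by edgeR and the median log2 difference was 0.03. The part of these in the higher TNF family genes was not tested. Of the partners, Tnfrsf4 (log2 change 1.06 ± 0.16, adjusted p = 0.0058) and Tnfrsf18 (1.32 ± 0.25, adjusted p = 0.0097) rose and 8 of 10 did not pass.

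In the wider family, 2 of 11 other ligands, 2 of 16 other receptors and 1 of 14 signaling genes were called higher, with 6, 10 and 9 at an unadjusted p under 0.05. Of the 11 other ligands, Ltb (log2 change 1.52 ± 0.34, adjusted p = 0.015) and Lta (1.22 ± 0.30, adjusted p = 0.021) rose. Of the 16 other receptors, Tnfrsf25, a death domain receptor of T cells (1.43 ± 0.25, adjusted p = 0.0078), and Tnfrsf8, or CD30, of activated lymphocytes (1.62 ± 0.27, adjusted p = 0.0069), rose. Of the 14 signaling genes, Birc3, an inhibitor of apoptosis bound to TRAF proteins and induced by NF-kB (1.20 ± 0.19, adjusted p = 0.0066), rose.

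Against untreated d10 tumors, treated d14 tumors had 0 of the 10 genes called by edgeR and 0 by DESeq2, where 5.34% and 2.49% of 18057 genes were called higher and lower by edgeR. At an unadjusted p under 0.05 there was 1, Tnfsf9, which was lower with less than a 2-fold difference (log2 difference -0.41 ± 0.11, adjusted p = 0.026). An adjusted p under 0.05 was reached by 27.7% of all genes. The differences of Cd40 (-0.06 ± 0.21) and Cd27 (0.05 ± 0.18) were smaller than their SE, and that of Tnfrsf9 was 0.23 ± 0.19. With only d10 replicates 4 and 5, Cd40lg was called (1.37). Of 16 other family receptors edgeR called Tnfrsf25 (1.74), and it called 0 of 10 partners, 0 of 11 other ligands and 0 of 14 signaling genes, with 3, 4 and 7 at an unadjusted p under 0.05. Untreated d10 tumors enter this comparison and the d6 and d14 ones alike, and collection day and treatment cannot be told apart in it.

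Between treated and untreated d10 tumors none of the 10 genes was called by edgeR or DESeq2, where 0.0174% and 0.00% of 17258 genes were called higher and lower by edgeR, 3 genes in all. The only gene at an unadjusted p under 0.05 was Tnfsf9, with treated tumors at 30.5 to 37.6 CPM and untreated ones at 21.8 to 28.8 CPM (log2 difference 0.39 ± 0.12, adjusted p = 0.28). Cd40 was lower in value (-0.40 ± 0.21, adjusted p = 0.43). Over the alternatives the adjusted p ran from 0.0054 to 0.7 for Tnfsf9 and from 0.028 to 0.76 for Cd40. Neither gene was called in any of them, their differences staying under 2-fold. Against untreated d10 replicates 1 to 3 alone 6.79% of all genes were called in either direction, and against replicates 4 and 5, which lay in the library set of the treated d10 tumors, 0.561%, with 0 of the 10 genes called in both cases. B cell markers summed to 30.1 to 34.7 CPM in treated and up to 164 CPM in untreated d10 tumors, the highest being replicate 4. EdgeR called 0 of the 10 partners, 10 other ligands, 16 other receptors and 14 signaling genes, with 5, 3, 4 and 4 at an unadjusted p under 0.05.

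Within treated tumors, 0 of the 10 genes were called from d10 to d14 by edgeR or DESeq2, where 9.00% and 2.48% of 17791 genes were called higher and lower by edgeR. There were 5 at an unadjusted p under 0.05. By adjusted p alone 4 of the 10 passed, where 46.6% of all genes did, so this count is near the background. Tnfsf9 was lower in 3 of 3 d14 tumors with less than a 2-fold difference (log2 difference -0.75 ± 0.09, adjusted p = 0.00064). Cd40lg (0.86 ± 0.30, adjusted p = 0.042), Tnfsf14 (0.61 ± 0.20, adjusted p = 0.031) and Cd40 (0.39 ± 0.11, adjusted p = 0.018) were higher, also under 2-fold. Without treated d10 replicate 1, Tnfsf18 (1.30) and Cd40lg (1.04) were called. Btla, an inhibitory partner of Tnfrsf14 on B and T cells, rose (1.16 ± 0.16, adjusted p = 0.00082) as 1 of 10 partners, together with 4 of 5 B cell markers. The receptors Ngfr, Tnfrsf17, Tnfrsf25 and Tnfrsf13c and the ligand Eda were called higher, and 0 of 14 signaling genes was called, with 8 at an unadjusted p under 0.05.

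The difference between treated and untreated tumors was itself larger at d14 than at d10 for 4 genes. The interaction was 2.61 ± 0.76 on the log2 scale for Cd40lg (adjusted p = 0.031), 1.47 ± 0.35 for Cd40 (adjusted p = 0.012), 1.46 ± 0.33 for Tnfsf14 (adjusted p = 0.011) and 1.15 ± 0.32 for Cd27 (adjusted p = 0.026). Thus 4 of 10 were called higher and 0 lower, where 9.67% and 2.15% of 18574 genes were. For Tnfsf9 it was -0.71 ± 0.19 (adjusted p = 0.019), under the 2-fold threshold, so that 5 of 10 had an adjusted p under 0.05, where 17.7% of all genes did. Tnfrsf9 (0.41 ± 0.25, adjusted p = 0.27) and Tnfsf10 (-0.05, adjusted p = 0.9) did not pass. Cd40 and Tnfsf14 were called in all 23 alternatives, Cd27 in 16 of 23 (adjusted p 0.0052 to 0.08) and Cd40lg in 14 of 22 (0.0046 to 0.11). Cd27 and Cd40lg both lost the call without untreated d14 replicate 1 or 2, treated d10 replicate 2 or 3, or treated d14 replicate 1 or 2, Cd40lg also without untreated d10 replicate 2. Against only untreated d10 replicates 4 and 5 the interaction of Cd40lg was 1.78 (adjusted p = 0.11), and against only replicates 1 to 3 that of Cd27 was 0.987. Partners called were Tnfrsf4 (1.28 ± 0.22, adjusted p = 0.0038), Tnfrsf18 (1.31 ± 0.29, adjusted p = 0.0097) and Btla (1.42 ± 0.42, adjusted p = 0.031), beside 2 of 11 other ligands, 5 of 16 other receptors and 1 of 14 signaling genes. The tumors of this test are those of the separate comparisons at d10 and d14.

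The balance of ligand and receptor mRNA was followed as the log2 ratio of their normalized CPM, with 0.1 CPM added to each. From d6 to d10 the mean ratio of Tnfsf9 to Tnfrsf9 shifted by -1.27, of Cd70 to Cd27 by -1.10 and of Tnfsf10 to Tnfrsf10b, its death receptor, by -1.20. That of Tnfsf4 to Tnfrsf4 shifted by 1.51 and of Tnfsf18 to Tnfrsf18 by 1.15. In each of these 5 pairs d6 and d10 tumors did not overlap in this ratio. The two-sided exact permutation p was 0.0179, the smallest that 3 tumors against 5 allow, and the Benjamini-Hochberg value over all 49 tests was 0.125. The shift and separation of Cd70 to Cd27 depend on the 0.1 CPM added, which exceeded the d6 mean of Cd70 (0.0694 CPM). In the edgeR fit Cd70 changed by 1.48 ± 0.54 and Cd27 by 1.88 ± 0.21. The value added also exceeded the untreated d14 mean of Cd40lg (0.0973 CPM). Between treated and untreated d14 tumors the shifts included -0.96 for Tnfsf9 to Tnfrsf9, -0.75 for Tnfsf18 to Tnfrsf18 and 0.58 for Cd40lg to Cd40, with an exact p of 0.1, the smallest possible with 3 against 3, and an adjusted value of 0.202. No test passed an adjusted 0.05, and a shift in either partner moves a ratio.

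**Figure D3:**
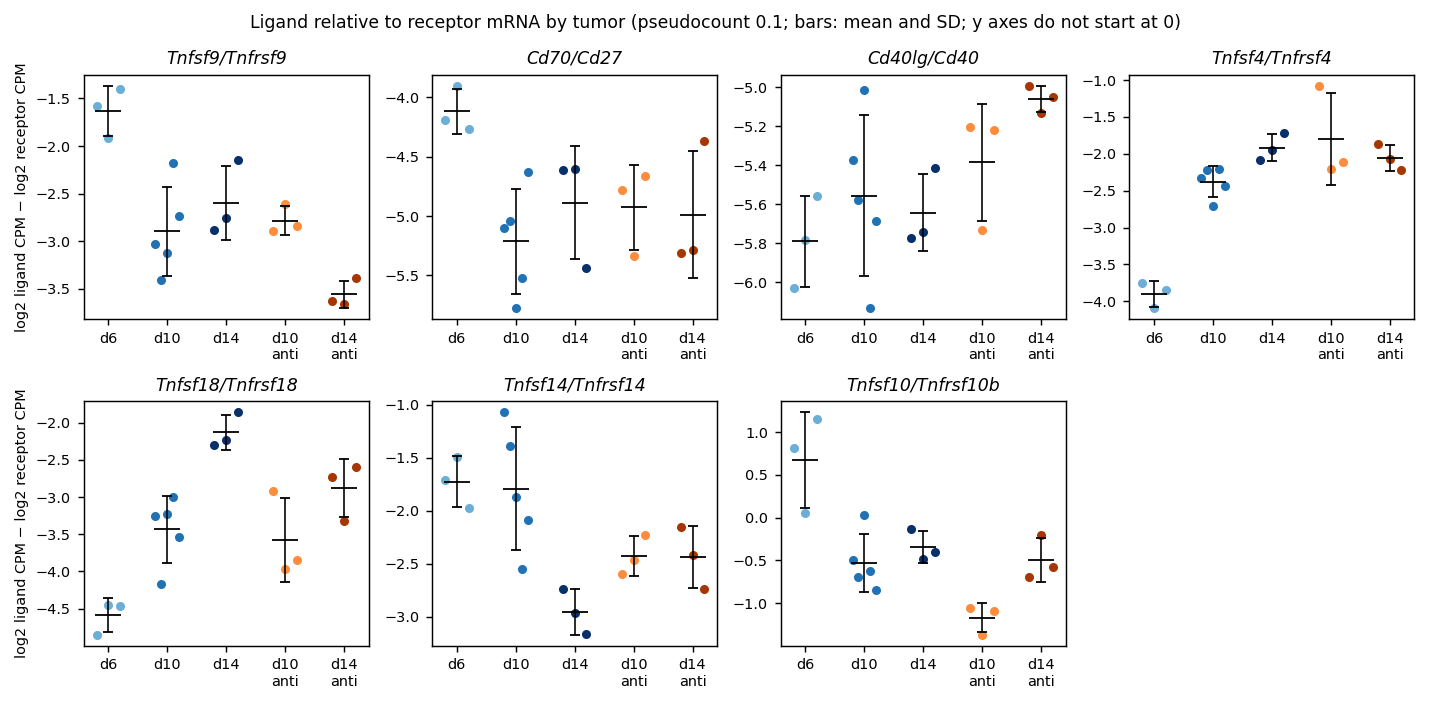
Log2 ratio of ligand to receptor normalized CPM for 7 pairs, with 1 point per tumor, by group. The Tnfsf9 to Tnfrsf9 ratio was highest at d6, and the Tnfsf4 to Tnfrsf4 and Tnfsf18 to Tnfrsf18 ratios were lowest there.

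The genes carried by T cells were also set against the mean log2 level of Cd3d, Cd3e and Cd3g, subunits of the T cell receptor complex. Between d6 and d10, where these markers rose, the level relative to them changed by -0.28 for Cd27 (exact permutation p = 0.125), by -0.95 for Tnfrsf9 (exact p = 0.0357) and by -2.59 for Cd40lg, -1.80 for Tnfsf14 and -1.37 for Cd70 (exact p = 0.0179 each). So Tnfrsf9, higher per total RNA at d10, was lower per CD3 mRNA. Between untreated and treated d14 tumors the relative differences were 0.09 for Cd27, -0.01 for Cd70, 0.22 for Tnfsf14, -0.32 for Tnfrsf9 and 0.73 for Cd40lg, the last with an exact p of 0.1. The 0.1 CPM added to each level exceeded the untreated d14 means of Cd70 (0.0844 CPM) and Cd40lg (0.0973 CPM), which shrinks their differences. Their edgeR changes were 1.64 ± 0.43 and 2.32 ± 0.56, against a median of 0.98 for the 5 T cell markers. At d6 Cd70 (0.0694 CPM) was also under it, which makes its d6 to d10 value more negative. Of 35 such tests none passed an adjusted 0.05, the lowest adjusted value among those named being 0.208. Tnfrsf9, Tnfsf14 and Cd70 are also made by cells other than T cells, which this scaling does not address. Nor does CD3 separate CD4 from CD8 T cells, and Cd40lg comes mainly from activated CD4 T cells. The CD8 marker sum was 12.1 to 12.4 CPM at d6 and 96.6 to 135 CPM at d10. Cd4 itself was 9.11 to 10.8 CPM and 5.68 to 10.1 CPM on these days. In d14 tumors Cd4 was 8.13 to 10.2 CPM with treatment and 2.08 to 4.57 CPM without. The part of the CD4 and CD8 mix in the Cd40lg values was not tested.

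**Figure D4:**
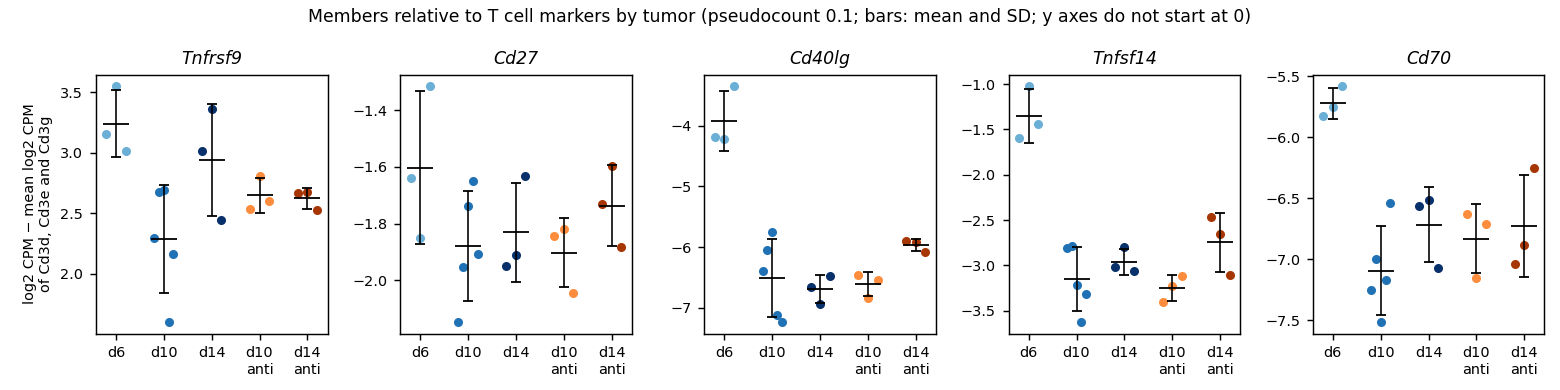
Log2 normalized CPM of 5 genes relative to the mean of Cd3d, Cd3e and Cd3g, with 1 point per tumor, by group. The Cd27 group means lay between -1.90 and -1.60, while Cd40lg, Tnfsf14 and Cd70 were highest relative to CD3 at d6. Cd70 at d6 lay under the 0.1 CPM added to each level.

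Tnfsf10 was set beside interferon response genes and Cd40 beside markers of cells that carry it. The sum of 15 type I interferon response genes was 5019 to 9283 CPM at d6, 1024 to 1633 CPM at d10 and 1336 to 1678 CPM at d14 without treatment, and 886 to 1440 CPM in treated tumors. All 15 fell from d6 to d10 (median log2 change -2.89), as Tnfsf10 did by less (-1.11). Between treated and untreated d14 tumors edgeR called 0 of the 15 interferon genes, with 14 at an unadjusted p under 0.05 and a median of -0.76, and Tnfsf10 was not called either. Whether interferon had a part in the level of Tnfsf10 was not tested. For Cd40, the macrophage sum had a median of 521 CPM at d6, where Cd40 was highest, 654 at d10 and 359 at d14 without treatment, and 893 CPM in treated d14 tumors. The sum of 6 dendritic cell markers had medians of 100.5, 89.0 and 72.9 CPM on these days and 99.7 CPM in treated d14 tumors, and that of 5 B cell markers 71.5, 47.8, 52.6 and 57.1 CPM. The part of these cells in the level of Cd40 was not tested.

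**Figure D5:**
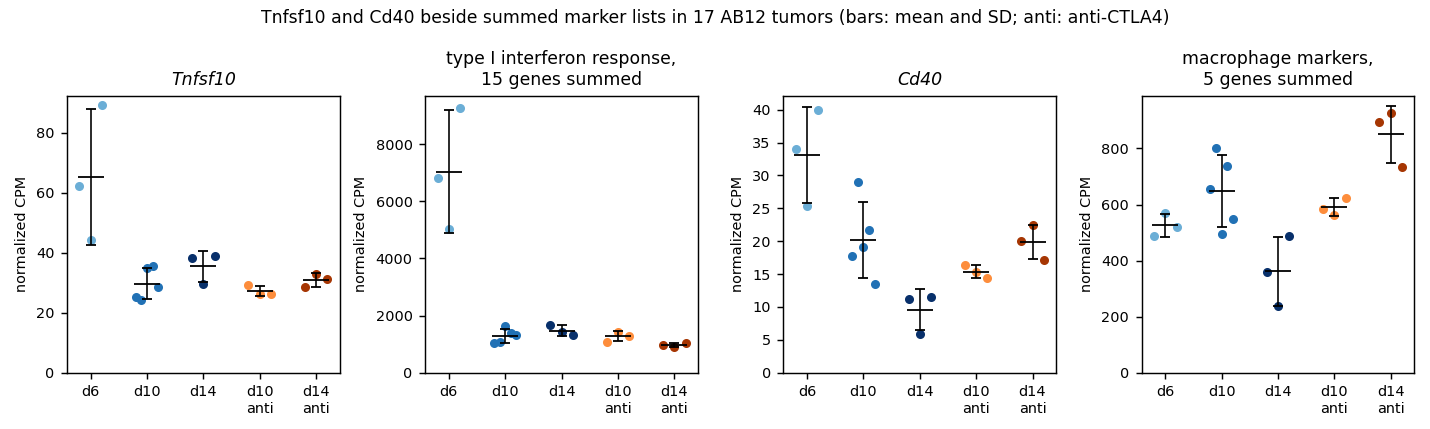
Normalized CPM by group, with 1 point per tumor, for Tnfsf10 beside the sum of 15 type I interferon response genes and for Cd40 beside the sum of 5 macrophage markers. Tnfsf10 and the interferon sum were both highest at d6, whereas the macrophage sum was highest in treated d14 tumors and Cd40 at d6.

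For the 9 genes called in any comparison, all but Tnfsf9, the genes with the closest profile over the 17 libraries were ranked by the root mean square (RMS) difference of centered log2 levels among 12379 genes with a mean of at least 1 CPM. Nearest to Cd27 were Cd3e (RMS 0.179), Sh2d2a (0.184) and Bambi (0.196). Nearest to Tnfsf10 were Il15 (0.132), Enpp4 (0.145) and Ppm1k (0.155), and nearest to Tnfrsf9 were Lrp12 (0.198), Scin (0.229) and Klre1 (0.236). Gypc (0.184) came first for Cd40, C3ar1 (0.17) for Tnfsf14, Psd4 (0.244) for Tnfsf4, Dock4 (0.29) for Tnfsf18, Lrrc4 (0.278) for Cd40lg and Ttyh3 (0.254) for Cd70. The libraries share groups and sets, so these likenesses are descriptions.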

How the data were processed

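Total RNA of 17 tumors was sequenced, and the authors deposited 1 table of raw read counts per gene (55450 Ensembl genes). Per the labels' processing notes, reads were aligned with TopHat2 2.0.14 to GRCm38 and counted with HTSeq, and the strand setting is not given in the sources used here. Tumors came from separate mice, and groups and replicate numbers were taken from the labels. Libraries held 46371577 to 96759833 counts, and counting error is largest for genes with few counts, such as Cd70 and Cd40lg.

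Symbols and positions were taken from Gencode vM21. Genes were tested with edgeR 4.0.16 in R 4.3.3 (filterByExpr, TMM scaling, quasi-likelihood test, Benjamini-Hochberg adjustment over all genes tested), each fit holding only the groups compared. Calls needed an adjusted p under 0.05 and a log2 change above 1 in size. SE was the log2 change divided by the square root of F. Levels are CPM scaled by TMM over all 17 libraries. Ratios were tested with two-sided exact permutation tests. Fits were tested on simulated data.

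All 10 genes were tested in every comparison except Cd70 in d14 against d6. The text names the called ones and some of the others, and gives values for partners and genes of the other lists mostly where they were called. The genes, lists and markers were chosen with earlier results of these data known. Alternatives were DESeq2 1.42.0, other filters, scalings, gene sets and sample sets, thinned counts, a replicate block, adjusted p alone, another pseudocount (0.5 CPM), CD8 reference genes, and each tumor left out in turn. The 3 library sets were found from counts of pseudogenes and small RNAs. Plots came from Python 3.11.15 and matplotlib 3.10.9.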

Additional observations from a re-analysis of the deposited data

Results flagged for a closer look

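The treatment difference changed between d10 and d14, by edgeR's interaction test with Benjamini-Hochberg adjustment over all genes, in 5 of the 10 genes at an adjusted p under 0.05, against 17.7% of all genes tested. Each value is the log2 difference between treated and untreated tumors at d14 minus that at d10. It was 2.61 for Cd40lg, which was 2.32 higher in treated tumors at d14 and 0.30 lower at d10, or 0.54 higher at d10 against only untreated d10 replicates 4 and 5, when the interaction was 1.78 with an adjusted p of 0.11 (0.0046 to 0.11 over its alternatives). For Cd40 it was 1.47, with 1.09 at d14 and -0.40 at d10, and for Tnfsf14 1.46, with 1.25 and -0.21. For Cd27 it was 1.15, with 1.04 and -0.12, and 0.987 against only untreated d10 replicates 1 to 3. For Tnfsf9 it was -0.71, with -0.30 at d14 and 0.39 at d10, and this one stayed under the 2-fold threshold. The untreated d14 tumors were the lowest group for Cd40lg, Cd40 and Tnfsf14, the d6 tumors for Cd27 and the treated d14 tumors for Tnfsf9. Untreated d10 tumors span both of the first 2 library sets, and the part of these sets was not tested beyond these values. In the 5 untreated d10 tumors none of the 10 genes had a tumor standing apart from the rest by Dixon's test.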

How the results depend on the processing

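Over 1334 alternative values of single genes, 1212 kept direction and side of the threshold, 47 lost a call, 24 gained one and 51 changed sign, the last in 17 results of which 0 were among the 18 calls. The cause of these changes was not tested. The number of the 10 genes called from d10 to d14 without treatment was 1, and 2 with DESeq2, with all 5 groups in one fit, with d10 replicates 1 to 3 only or with replicates 4 and 5 only, 3 by adjusted p alone and 0 with the replicate block. The share of all genes called was 7.23% in the main fit and 8.64%, 10.6%, 11.3% and 10.4% in the settings with 2 calls, in that order. It was 9.00% with the replicate block. Against d6, the 3 calls at d14 became 1 with at least 10 counts in every library and 6 by adjusted p alone. The count filter removed Cd40lg (lowest count 1, at d14) and Tnfsf18 (lowest count 6, at d6), so these genes were not tested under it. Of all genes, that count filter left 14.4% called, against 19.0% in the main fit. For treated against untreated d14 tumors the 6 calls became 3 with the replicate block, where 9.42% of all genes were called, against 11.5% in the main fit. For treated d14 against untreated d10 tumors, 0 became 1 with d10 replicates 4 and 5 only and 1 by adjusted p alone, and for treated d14 against treated d10 tumors 1 with thinned counts and 4 by adjusted p alone. Of all genes, 11.9% were called with d10 replicates 4 and 5 only and 10.8% with thinned counts in these comparisons. With 1 tumor left out, the counts ran from 3 to 6 (d10 against d6), 0 to 2 (d14 against d10), 3 to 4 (d14 against d6), 1 to 6 (treated against untreated d14), 0 to 2 (treated d14 against d10) and 2 to 4 (interaction), and were 0 to 0 for both remaining comparisons.

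Replicate numbers do not pair the tumors. Same-numbered tumors had correlations of -0.32 to 0.18 over 21 pairs, so the block shares only a number, and with it the adjusted p was 0.055 for Cd70 and 0.051 for Cd27 and the log2 change of Tnfsf4 was 0.996 at d14, and the adjusted p was 0.054 for Cd40 from d10 to d14.

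Some log2 values changed sign. For Tnfsf9, d10 against d6 gave 0.046 with d10 replicates 4 and 5, and d14 against d10 gave 0.030 without TMM, 0.013 with coding genes only, 0.065 with the replicate block and 0.077 with d10 replicates 1 to 3. For Tnfsf18, d14 against d10 gave -0.18 with d10 replicates 4 and 5, and treated against untreated d10 gave 0.013 with the replicate block and 0.13 with d10 replicates 1 to 3. For Cd40, treated d14 against untreated d10 gave 0.079 without TMM, 0.0036 with coding genes only and 0.15 with d10 replicates 4 and 5. With those replicates the same comparison gave -0.14 for Cd27, -0.043 for Cd70 and -0.082 for Tnfsf10, and treated against untreated d10 gave 0.54 for Cd40lg, -0.20 for Cd70 and 0.021 for Tnfsf14. For Cd27, treated against untreated d10 gave 0.039 with the replicate block and 0.049 with d10 replicates 1 to 3. For Tnfsf4, treated d14 against treated d10 gave 0.058 without TMM and 0.033 with the replicate block. For Tnfsf10 the interaction was 0.0011 without TMM and 0.069 with d10 replicates 4 and 5. With 1 tumor left out, values ran from -0.043 to 0.17 (Cd27), -0.18 to 0.092 (Cd40) and -0.061 to 0.093 (Tnfsf10) in treated d14 against untreated d10, from -0.036 to 0.50 (Cd70), -0.67 to 0.15 (Tnfsf18) and -0.034 to 0.65 (Tnfsf4) in treated against untreated d10, from -0.11 to 0.44 (Cd70), -0.014 to 0.13 (Tnfrsf9) and -0.26 to 0.43 (Tnfsf4) in treated d14 against treated d10, from -0.18 to 0.35 (Tnfsf18) and -0.19 to 0.051 (Tnfsf9) in d14 against d10, and from -0.19 to 0.019 (Tnfsf10) in the interaction.

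Over all genes, treated against untreated d10 tumors had 3 calls by edgeR, 223 by DESeq2, 77 with all 5 groups in one fit, 40 with all genes of at least 1 count, 1210 with the replicate block, 1152 with untreated d10 replicates 1 to 3 only and 96 with replicates 4 and 5 only, and 0 to 115 with 1 tumor left out. By adjusted p alone, 19.7% of all genes passed in d14 against d10, 51.5% in d14 against d6, 27.7% in treated d14 against untreated d10 and 46.6% in treated d14 against treated d10. Without TMM the median of all genes was 0.11 in treated d14 against untreated d10 and 0.16 in treated d14 against treated d10, and with all genes of at least 1 count it was 0.15 in the latter and 0.14 in d14 against d6. Ratios without overlap between groups numbered 21 of 49 for ligands to receptors (23 with a pseudocount of 0.5, 21 to 25 with 1 tumor left out) and 10 of 35 relative to CD3 (11 with a pseudocount of 0.5, 12 relative to CD8, 10 to 14 with 1 tumor left out). The comparisons reuse the same tumors, and the share without overlap among other genes or gene pairs was not computed. These counts therefore describe the ratios and say nothing particular to these genes. Depth limits Cd70 and Cd40lg, whose lowest libraries held 3 and 1 counts.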
